A study of Mus musculus with 12 samples.

Results

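The 8 genes described here, Srebf1, Srebf2, Scap, Insig1, Insig2, Mylip, Stard4 and Tmem97, act in sterol sensing and in the uptake and movement of LDL cholesterol. They were taken by name, as the rows for these genes in liver count tables that list 24062 genes. All 8 were found, and all 8 were among the 12481 genes with enough reads to be tested. RNA-seq was run on whole liver of 12 female C57BL/6J mice, 6 fed a control diet and 6 fed a matched diet with BIBB-515, an inhibitor of the sterol synthesis enzyme lanosterol synthase (Lss), at 55 mg per kg of body weight for 10 days. The mice were wild-type, arrived at 6 weeks of age, were acclimated for 2 weeks and were housed 3 or 4 per cage, with cage not given for single mice. All were switched from chow to the control diet 3 days before the start. The study randomized 11 mice to each diet, and 6 of each are in the count tables. The question addressed here is how the liver's own sterol-sensing genes stood when a late step of cholesterol synthesis was inhibited.

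Cells sense cholesterol in the membrane of the endoplasmic reticulum, where the escort protein Scap carries the precursors of the SREBP transcription factors. When sterol is plentiful an Insig protein holds Scap back, and when it is scarce Scap moves SREBP to the Golgi, where it is cut free to turn on genes of sterol synthesis and LDL uptake. Srebf2 encodes the SREBP that mainly serves cholesterol, Srebf1 the one that mainly serves fatty acid synthesis in liver, and Insig1 is itself a well-known SREBP target.

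Of the 8 genes, 2 were higher on the BIBB-515 diet and 6 did not pass the test. Insig2 rose 1.88-fold (95% interval 1.44 to 2.45) and Tmem97 rose 1.36-fold (95% interval 1.17 to 1.58), both past a false discovery rate (FDR) of 0.05 in edgeR's quasi-likelihood test adjusted over all tested genes. The background for such a count is that 13.7% of all tested genes were called, 7.18% as higher and 6.48% as lower. The transcripts for both SREBPs, for Scap, for the other Insig, for the ubiquitin ligase Mylip and for the sterol carrier Stard4 had fitted log2 changes between -0.17 and 0.18. The median log2 change was 0.08 over the 8 genes and -0.01 over all tested genes.

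**Figure D1:**
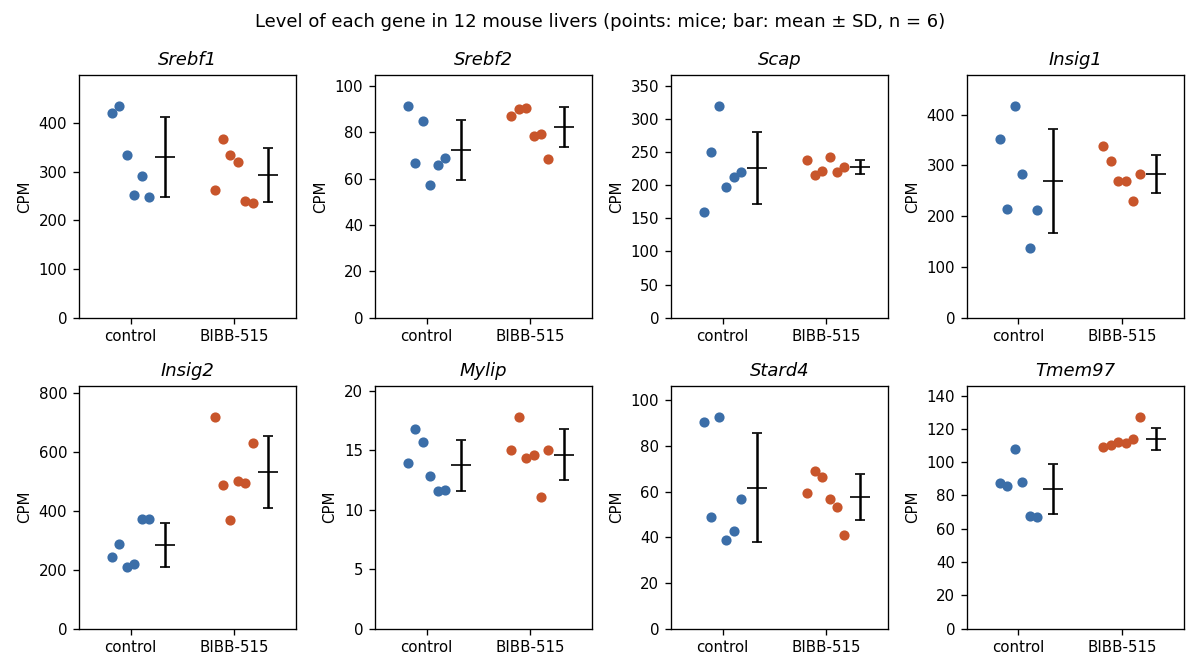
Level of each gene in CPM, counts scaled to the library's total (vertical axis from 0), for 6 control and 6 BIBB-515 mice, each point a mouse and each bar a mean ± SD (n = 6). The BIBB-515 points for Tmem97, 109.2 to 127.0 CPM, all lie above the control points, those for Insig2 do so in 5 of 6 mice, and the diets overlap for the other 6 genes.

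Promoter sequences are shown for Insig2 and Tmem97, the genes that rose, for Insig1, the close relative of Insig2 that did not pass the test, and for Srebf2, whose promoter alone among these genes held the searched sterol response element core. They are RefSeq sequences on GRCm38.p6, the same assembly as mm10, and run from 250 bases before to 50 bases after an annotated start, 5′ to 3′ on the gene's strand. Capitals mark matches, on either strand, to the sterol response element core (TCACNCCA), the E-box (CACGTG), the CCAAT box, the GC box (GGGCGG), the TATA box (TATAAA) or the nuclear receptor repeat known as DR4. Insig2 has 3 annotated starts, of which the most upstream and the next are shown.
Insig2, upstream start, chr1:121332540-121332839, minus strand: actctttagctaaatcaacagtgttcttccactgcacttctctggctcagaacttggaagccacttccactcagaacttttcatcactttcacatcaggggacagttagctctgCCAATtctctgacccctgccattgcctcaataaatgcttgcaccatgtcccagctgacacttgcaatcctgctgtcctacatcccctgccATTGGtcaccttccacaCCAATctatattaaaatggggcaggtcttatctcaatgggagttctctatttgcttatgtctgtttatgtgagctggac
Insig2, second start, chr1:121327975-121328274, minus strand: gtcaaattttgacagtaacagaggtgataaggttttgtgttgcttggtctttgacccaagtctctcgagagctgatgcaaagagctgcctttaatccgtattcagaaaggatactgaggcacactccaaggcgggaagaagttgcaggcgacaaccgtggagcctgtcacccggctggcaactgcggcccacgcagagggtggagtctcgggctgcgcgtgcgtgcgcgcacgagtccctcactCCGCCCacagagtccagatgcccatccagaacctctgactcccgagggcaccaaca
Insig1, chr5:28071162-28071461, plus strand: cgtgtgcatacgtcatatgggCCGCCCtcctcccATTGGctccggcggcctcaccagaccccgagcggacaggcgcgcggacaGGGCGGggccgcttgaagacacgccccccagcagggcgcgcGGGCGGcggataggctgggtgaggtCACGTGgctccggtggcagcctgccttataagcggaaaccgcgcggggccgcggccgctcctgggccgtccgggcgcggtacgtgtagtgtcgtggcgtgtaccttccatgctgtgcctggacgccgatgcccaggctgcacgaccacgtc
Tmem97, chr11:78550686-78550985, minus strand: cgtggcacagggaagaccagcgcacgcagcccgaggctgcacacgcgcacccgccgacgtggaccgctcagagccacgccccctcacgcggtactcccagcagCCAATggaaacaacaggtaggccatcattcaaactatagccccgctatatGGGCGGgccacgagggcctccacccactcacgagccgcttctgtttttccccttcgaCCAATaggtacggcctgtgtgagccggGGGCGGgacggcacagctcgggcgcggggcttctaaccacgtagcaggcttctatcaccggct
Srebf2, chr15:82147019-82147318, plus strand: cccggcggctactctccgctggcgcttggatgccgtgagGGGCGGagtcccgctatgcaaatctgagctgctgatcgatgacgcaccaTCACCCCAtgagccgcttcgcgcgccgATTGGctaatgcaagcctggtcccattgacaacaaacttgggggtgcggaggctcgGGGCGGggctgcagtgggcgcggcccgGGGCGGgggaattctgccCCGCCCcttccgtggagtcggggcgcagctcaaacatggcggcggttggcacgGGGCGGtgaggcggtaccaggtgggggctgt
The upstream Insig2 promoter had 3 CCAAT boxes, which begin 136, 46 and 29 bases before the start site, and no GC box, and 46.0% of its bases were G or C. The promoters of the second start and of the most downstream one had no CCAAT box and 1 GC box each, with 57.0% and 69.3% G or C. The Insig1 promoter, with 71.7% G or C, had an E-box 101 bases before the start, 1 CCAAT box and 3 GC boxes. The Tmem97 promoter had 2 CCAAT boxes and 2 GC boxes. In Srebf2 the sterol response element core lay 162 bases before the start, next to a CCAAT box at 135 bases before it. Among all 32851 promoters of this length in the RefSeq table, 4.36% held the sterol core, 7.15% the E-box, 37.4% a CCAAT box, 35.7% a GC box, 13.6% a TATA box and 0.125% the DR4 repeat, which none of the promoters of these genes held. A match of letters describes the window and is not a measured binding site. The table holds promoters for 7 of the 8 genes and none for Stard4.

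Insig2 (chr1:121304353-121332589, mm10, minus strand) encodes an Insig protein that holds Scap in the endoplasmic reticulum. Its level in the control livers ran from 207.4 to 372.9 CPM (counts scaled to the library's total) with a median of 264.6, and in the BIBB-515 livers from 367.4 to 716.2 with a median of 497.3. The lowest BIBB-515 mouse, replicate 8, lay just under control replicates 5 and 6, and the other 5 lay above every control. The mean was 283.4 ± 73.99 CPM (SD, n = 6) on the control diet and 532.1 ± 122.3 (SD, n = 6) on BIBB-515. The fitted log2 fold change was 0.91 with SE 0.18, at an FDR of 0.00413 in edgeR. A two-sided exact permutation test of the log2 CPM values over all 924 labelings of the mice gave p = 0.00649, where 0.00216 is the smallest p it allows. The call held without any single mouse, with a log2 change between 0.81 and 1.01 and an edgeR FDR between 0.00261 and 0.0116.

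The exon tables show where along Insig2 the reads lay. The annotation gives this gene 3 alternative first exons, each joined to the same later exons. The upstream first exon (chr1:121332492-121332589), which begins at the first of the promoters printed above, had 54 to 133 reads in the control mice, with a median of 83, and 172 to 468 in the BIBB-515 mice, with a median of 214.5. Scaled to library size, all 6 BIBB-515 mice lay above every control, with a log2 difference of 1.26 (two-sided exact permutation p = 0.00216, 0.0397 after Benjamini-Hochberg adjustment over the 92 exons of the 8 genes). The second first exon (chr1:121327691-121328024) had 3 to 12 reads in the control mice and 7 to 16 in the BIBB-515 mice, a log2 difference of 0.22 (exact permutation p = 0.561). The most downstream first exon (chr1:121327521-121327678) had 1 to 14 and 6 to 11 reads, a log2 difference of 0.35 (exact permutation p = 0.491). At these read numbers a change of the downstream first exons could not be measured well.

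Among the later exons, shared by all Insig2 transcripts, both forms of the second exon and the next exon rose by 0.97 to 1.04 on the log2 scale (exact permutation p = 0.00216, adjusted 0.0397). The last 3 exons had log2 differences of 0.88 to 0.90 that did not pass adjustment (exact permutation p = 0.00649, adjusted 0.0663). A larger difference on the first than on the last exon was not particular to Insig2. It was also seen in Insig1 (0.37 and 0.13), Stard4 (0.32 and -0.07) and Tmem97 (0.60 and 0.44), and in Srebf1, Srebf2 and Mylip. Scap, with at most 3 reads on its first exon in a mouse, had the reverse. The part of read coverage along transcripts in these exon differences was not tested. The second exon is listed with a long and a short form that overlap, so the same reads were counted on both. Of all reads on the 3 first exons, the upstream exon held 82.1% to 90.5% in the control mice, mean 85.8% ± 3.13 (SD, n = 6). On BIBB-515 it held 88.9% to 95.1%, mean 92.5% ± 2.23 (SD, n = 6). The difference of 6.7 percentage points passed a two-sided exact permutation test (p = 0.00433) and lay between 5.98 and 7.66 points without any single mouse. The upstream exon thus supplied most first-exon reads in every liver of both diets, and its share was larger on BIBB-515 in 5 of 6 mice than in any control. The downstream exons in this share had at most 16 reads each in a mouse. From tables of reads unique to 1 transcript, where the transcripts of Insig2 had at most 25 reads in a mouse, the share differed by -4.11 points (exact permutation p = 0.502), and the cause of the reversal was not tested.

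**Figure D2:**
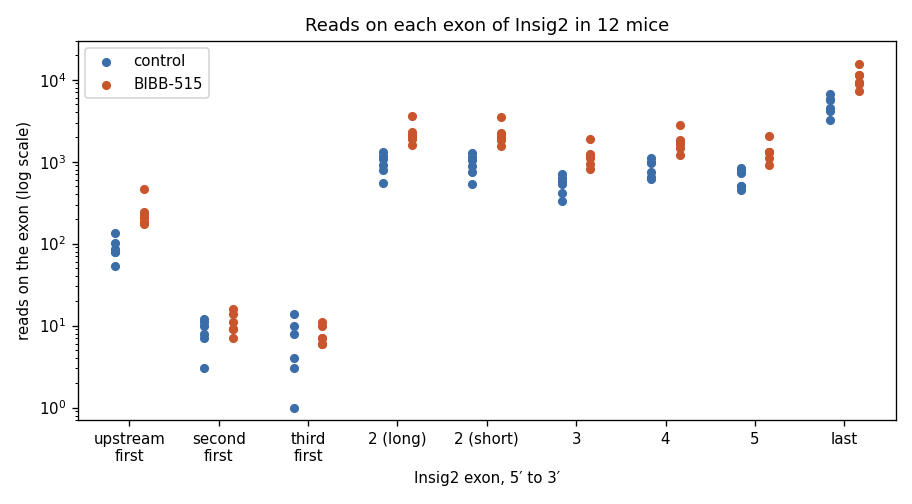
Reads on each exon of Insig2, in order from the 5′ end (horizontal axis), on a log scale (vertical axis), each point a mouse. Points for the upstream first exon run from 54 to 133 on the control diet and from 172 to 468 on BIBB-515, while the first exons downstream of it have at most 16 reads in any mouse.

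Insig1 (chr5:28071412-28078662, plus strand) encodes the other Insig, and its gene is turned on by SREBP. The control levels ran from 136.9 CPM in replicate 5 to 415.9 in replicate 3, a 3.04-fold span, with a median of 249.1. The BIBB-515 levels ran from 229.5 to 337.3, a 1.47-fold span, with a median of 276.0, and lay inside the control range in all 6 mice. The fitted log2 change was 0.07 with a 95% interval from -0.37 to 0.51 (edgeR FDR 0.857). It turned to -0.06 without control replicate 5. None of the 5 exons of Insig1 passed an exact permutation test.

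The level per kilobase of exon (RPKM) places the Insig transcripts on 1 scale. In the control livers mean Insig1 was 101.6 RPKM and mean Insig2 95.98, with Insig1 the higher in 3 of 6 mice. On BIBB-515 mean Insig1 was 106.7 RPKM and mean Insig2 180.2, with Insig2 the higher in 6 of 6 mice. The log2 ratio of Insig1 to Insig2 counts within a mouse was -0.13 ± 0.92 (SD, n = 6), from -1.45 to 1.0, on the control diet. It was -0.89 ± 0.28 (SD, n = 6), from -1.15 to -0.45, on BIBB-515. The difference of -0.76 was smaller than the control SD and did not pass the exact permutation test (p = 0.0931). Without control replicate 5, the mouse with the lowest Insig1, it was -1.03 (exact permutation p = 0.0108).

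Srebf2 (chr15:82147269-82204960, plus strand), the gene for SREBP-2, had control levels of 57.21 to 91.11 CPM with a median of 67.87, and BIBB-515 levels of 68.55 to 90.44 with a median of 83.08. The BIBB-515 range lay inside the control range. Its log2 change was 0.18 with a 95% interval from -0.05 to 0.42 (edgeR FDR 0.275), so an increase above 1.34-fold lay outside the interval. Of its 19 exons, 3 had an exact permutation p under 0.05 and 0 held after adjustment over the 92 exons.

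Srebf1 (chr11:60199089-60220604, minus strand), the gene for SREBP-1, had control levels of 247.4 to 433.5 CPM with a median of 311.9, and BIBB-515 levels of 234.6 to 366.9 with a median of 290.7. Its log2 change was -0.17 with a 95% interval from -0.51 to 0.17 (edgeR FDR 0.507). Between 0.78% and 2.35% of its reads in a mouse lay on an overlapping gene and were left out of the count. The RefSeq promoter table lists 3 starts for Srebf1, but the authors' annotation lists 1 first exon (chr11:60220453-60220604), with 14 to 33 reads in a mouse, so other first exons have no count of their own. As a share of the counted reads of the gene, that exon held 0.269% ± 0.045 (SD, n = 6) on the control diet and 0.333% ± 0.0493 (SD, n = 6) on BIBB-515, with an exact permutation p of 0.0455. Leaving out 1 mouse raised that p above 0.05 in 8 of 12 cases.

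The balance between the SREBP transcripts moved slightly toward Srebf2. The log2 ratio of Srebf2 to Srebf1 counts within a mouse was -2.17 ± 0.29 (SD, n = 6) on the control diet and -1.81 ± 0.2 (SD, n = 6) on BIBB-515, with 3 of 6 BIBB-515 mice above every control. The difference of 0.35 had an exact permutation p of 0.0238. It rose to 0.0541 without control replicate 2, BIBB-515 replicate 6 or BIBB-515 replicate 10, so the call rests on single mice. Srebf1 remained the more abundant SREBP transcript per kilobase on both diets, at 76.64 against 15.85 RPKM in the control livers and 68.06 against 18.01 on BIBB-515.

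Scap (chr9:110333288-110384949, plus strand), the escort of SREBP, had a mean of 226.5 ± 54.06 CPM (SD, n = 6) on the control diet and 227.6 ± 11.17 (SD, n = 6) on BIBB-515. The control mice ran from 160.2 to 318.9 CPM and the BIBB-515 mice from 214.8 to 243.1, inside the control range. The log2 change was 0.01 with a 95% interval from -0.26 to 0.28 (edgeR FDR 0.978), and its sign depended on which mouse was left out. The spread of the control livers was thus wide beside that of the BIBB-515 livers, with a coefficient of variation (CV) of 23.9% against 4.91%.

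Mylip (chr13:45389742-45411940, plus strand) encodes a ubiquitin ligase that limits LDL uptake and is turned on by the sterol receptor LXR. It was the least abundant of the 8 transcripts, at 11.54 to 16.76 CPM with a median of 13.36 on the control diet and 11.05 to 17.75 with a median of 14.77 on BIBB-515. The log2 change was 0.09 with a 95% interval from -0.16 to 0.34 (edgeR FDR 0.652).

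Stard4 (chr18:33201421-33213816, minus strand) encodes a soluble protein that carries sterol between membranes. Its control levels ran from 38.9 to 92.54 CPM with a median of 52.86, and control replicates 1 and 3 stood well above the other 4. The BIBB-515 levels ran from 41.03 to 69.21 with a median of 57.96. The log2 change was -0.10 with a 95% interval from -0.54 to 0.35 (edgeR FDR 0.794), and it turned to 0.04 and 0.06 without control replicate 1 or 3.

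Tmem97 (chr11:78541817-78550735, minus strand) encodes a membrane protein, also known as the sigma-2 receptor, that binds the lysosomal cholesterol exporter NPC1. It had control levels of 67.35 to 107.9 CPM with a median of 86.58 and BIBB-515 levels of 109.2 to 127.0 with a median of 111.9. All 6 BIBB-515 mice lay above every control, a separation in this direction that 4.35% of all tested genes also had, with 7.07% apart in either direction. The log2 fold change was 0.44 with SE 0.10 and an FDR of 0.0109 in edgeR, and the two-sided exact permutation test gave p = 0.00216, its smallest possible value. The log2 differences of its 3 exons, 5′ to 3′, were 0.60, 0.51 and 0.44. The call held without any single mouse, with a log2 change between 0.39 and 0.53 and an edgeR FDR of at most 0.0282. Of the 50-base words in its transcripts, 20.8% also occur in Gm5809, and reads that map to both places were left out of the counts.

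**Figure D3:**
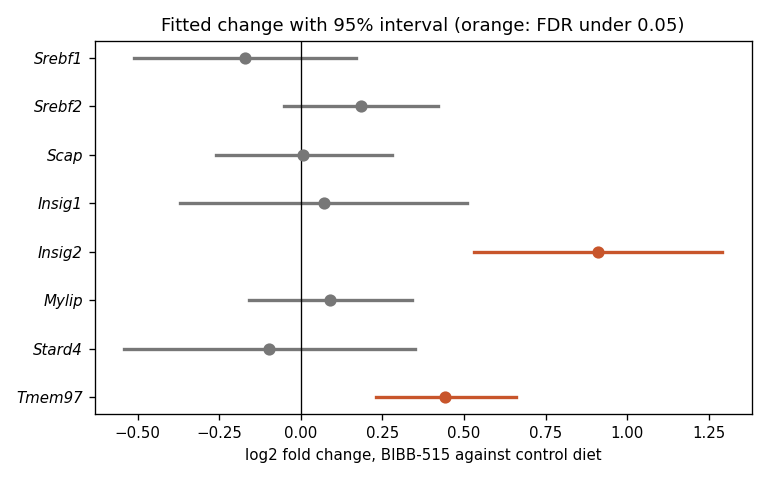
Fitted log2 fold change of BIBB-515 against control diet (horizontal axis) with its 95% interval for each gene, from edgeR's quasi-likelihood fit of 6 and 6 mice. The intervals of Insig2, 0.53 to 1.29, and Tmem97, 0.23 to 0.66, lie above 0, and those of the other 6 genes include 0.

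Ordered by mean RPKM, the control livers ran from Insig1 (101.6) through Insig2 (95.98), Srebf1 (76.64), Tmem97 (63.0), Scap (52.82), Stard4 (20.68) and Srebf2 (15.85) to Mylip (4.604). Neighbours in that order overlapped between mice except at the steps from Scap to Stard4 and from Srebf2 to Mylip. On BIBB-515 Insig2 came first at 180.2 RPKM and Tmem97, at 85.57, stood before Srebf1, at 68.06, while the order of the last 4 genes stayed as in the controls. The CV among mice was lower on BIBB-515 for 8 of 8 genes. The same held for 77.8% of all tested genes, so a smaller spread on this diet was common. The largest gaps were those of Insig1 (37.9% against 13.1%) and Stard4 (38.7% against 17.4%), along with that of Scap.

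Levels were also compared between mice within each diet, as 28 pairs of genes on each diet, 56 relations in all, with exact tests over the 720 orderings of 6 mice. None passed Benjamini-Hochberg adjustment, whether by Pearson or Spearman, and 4 pairs on each diet had an unadjusted Pearson p under 0.05. Srebf2 and Stard4 ran closest together. In the control mice Pearson's r was 0.97 (exact permutation p = 0.00278, adjusted 0.0778) and Spearman's rho 0.94 (exact permutation p = 0.0167, adjusted 0.233). In the BIBB-515 mice r was 0.97 (exact permutation p = 0.00556, adjusted 0.104) and rho 0.89 (exact permutation p = 0.0333, adjusted 0.311). Without the 2 mice farthest from the median of Srebf2, r was 0.85 on the control diet and 0.89 on BIBB-515. With 4 mice left the smallest two-sided p is 0.0833, so no such repeat can pass.

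The read coverage along transcripts moved with these levels at the low end. The median ratio of reads per base on the second to the last exon, over 1725 genes with 1 transcript, ran from 0.643 to 1.02 in the control mice and from 0.794 to 1.1 in the BIBB-515 mice (exact permutation p = 0.329 between diets). The mouse with the lowest ratio on each diet, control replicate 4 and BIBB-515 replicate 11, also had the lowest Srebf2 and the lowest Stard4 of its diet, and the part of coverage in the Srebf2 and Stard4 relation was not tested. Without both mice Insig2 had a log2 change of 0.80 (edgeR FDR 0.0238) and Tmem97 one of 0.43 (edgeR FDR 0.0364).

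In the control mice, Insig1 and Insig2 ran in opposite directions. Pearson's r was -0.88 (exact permutation p = 0.0236, adjusted 0.243), rho was -0.94 (exact permutation p = 0.0167, adjusted 0.233), and r was -0.75 without the 2 mice farthest from the median of Insig1. Control replicate 3 had the highest Insig1 and the lowest Insig2, and control replicate 5 the lowest Insig1 and the highest Insig2. Tmem97 went with Insig1 in these mice, with r = 0.86 (exact permutation p = 0.0236, adjusted 0.243) and rho = 0.89 (exact permutation p = 0.0333, adjusted 0.311), and against Insig2, with r = -0.94 (exact permutation p = 0.00278, adjusted 0.0778) and rho = -0.94 (exact permutation p = 0.0167, adjusted 0.233). Without the 2 farthest mice these values of r were 0.59 and -0.69. On BIBB-515, r was 0.53 for Insig1 with Insig2 (exact permutation p = 0.275, adjusted 0.684; rho 0.54, exact permutation p = 0.297, adjusted 0.757). It was 0.31 without the 2 farthest mice. Tmem97 had r = -0.24 with Insig1 there (exact permutation p = 0.558, adjusted 0.774; rho -0.66, exact permutation p = 0.175, adjusted 0.653) and r = 0.23 with Insig2 (exact permutation p = 0.593, adjusted 0.774; rho -0.14, exact permutation p = 0.803, adjusted 0.899). Without the 2 farthest mice these were -0.06 and 0.98. Tmem97 ran against Srebf2 on BIBB-515, with r = -0.87 (exact permutation p = 0.0333, adjusted 0.243; rho -0.49, exact permutation p = 0.356, adjusted 0.83), and against Stard4, with r = -0.89 (exact permutation p = 0.0347, adjusted 0.243; rho -0.71, exact permutation p = 0.136, adjusted 0.653). Without the 2 farthest mice these were -0.76 and -0.33. BIBB-515 replicate 11 had the highest Tmem97 and the lowest Srebf2 and Stard4 of its diet. Insig2 and Tmem97 thus both rose with the diet while they ran against each other among the control mice. Whether the relations differ between diets was not tested.

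**Figure D4:**
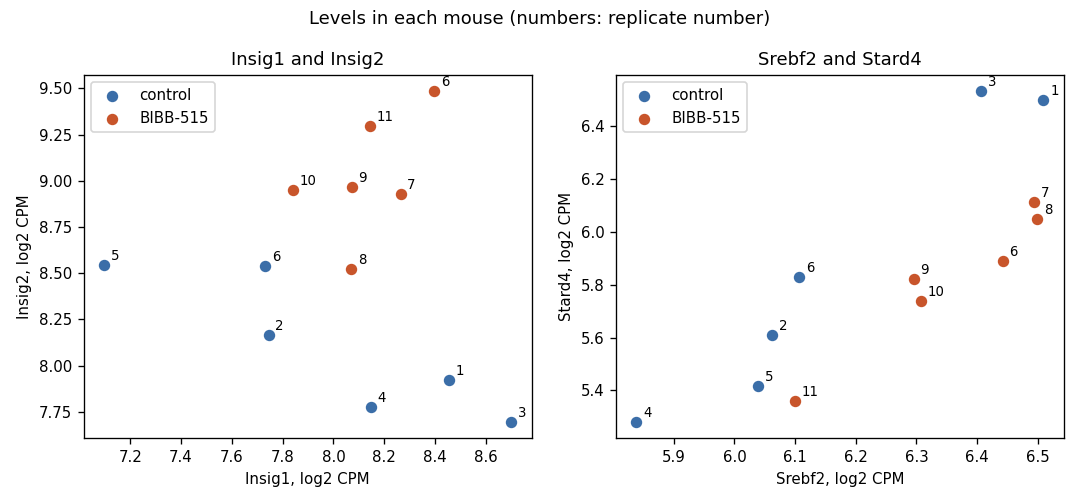
Levels of Insig1 against Insig2 (left) and of Srebf2 against Stard4 (right) in log2 CPM, each point a mouse with its replicate number. On the left the control points fall from upper left to lower right (r = -0.88) and 5 of 6 BIBB-515 points lie above them all, and on the right both diets rise along the diagonal (r = 0.97 on each).

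The mean log2 CPM of 20 sterol synthesis genes, which are SREBP-2 targets, ran from 6.32 in control replicate 5 to 7.53 in control replicate 3, and from 7.44 to 7.78 on BIBB-515. Against this mean and that of 17 fatty acid synthesis genes, 32 relations were computed, of which 0 passed adjustment by either coefficient. With the sterol mean in the control mice, Insig1 had r = 0.96 (exact permutation p = 0.00833, adjusted 0.267) and rho = 0.89 (exact permutation p = 0.0333, adjusted 0.373), and r was 0.89 without the 2 farthest mice. Insig2 had r = -0.92 (exact permutation p = 0.0181, adjusted 0.276) and rho = -0.94 (exact permutation p = 0.0167, adjusted 0.373), and r was -0.84 without the 2 farthest mice. On BIBB-515 the value was 0.85 for Insig1 (exact permutation p = 0.0389, adjusted 0.276; rho 0.77, exact permutation p = 0.103, adjusted 0.47), and 0.92 without the 2 farthest mice. For Insig2 it was 0.65 there (exact permutation p = 0.163, adjusted 0.52; rho 0.49, exact permutation p = 0.356, adjusted 0.632), and 0.41 without them. Among these 6 control mice, those with higher sterol synthesis transcripts tended to have higher Insig1 and lower Insig2, in relations that did not pass adjustment. On BIBB-515 the sterol means began at 7.44, below the highest control at 7.53, and Insig2 lay above every control in 5 of 6 mice. Whether these relations differ between diets was not tested.

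The genes whose levels were most alike to each member, by r over the 12 mice after the diet means were taken off, are given as a description with no test. For Insig1 they included Sqle, which makes squalene epoxide in sterol synthesis, at 0.96, and Nfe2 at 0.94. For Insig2 they were Gla, the lysosomal alpha-galactosidase, at 0.93, Commd8 at 0.90 and Vps37b, an endosomal sorting protein, at 0.89. For Srebf2 they were Kank2, Sox6 and Crkl at 0.93 each, and for Stard4 Crkl at 0.95, Hook1 at 0.94 and Kank2 at 0.92, so that Kank2 and Crkl were among the 3 nearest to both. Scap was nearest to Gas6 (0.95), Ubxn7 (0.93) and the lysosomal protease gene Ctsd (0.92), and Tmem97 to Nudt19 (0.93), Sbk1 and Pold2 (0.92 each). Srebf1 was nearest to Itpkb (0.94) and Mylip to Man1c1 (0.91).

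The rest of the pathway gives the setting for these values. Of the 20 sterol synthesis genes, 7 rose and 0 fell, with a median log2 change of 0.59. This is 35.0% of the list, where 13.7% of all tested genes were called in either direction and 7.18% as higher. The 7 included Cyp51, which acts on lanosterol itself, at 1.17 (SE 0.21, edgeR FDR 0.00222), Mvk at 1.12 (SE 0.20, edgeR FDR 0.00233) and Tm7sf2 at 0.79 (SE 0.08, edgeR FDR 2.96e-05). Lss, whose enzyme is the target of BIBB-515, had 78.8 ± 47.1 CPM (SD, n = 6) on the control diet and 136 ± 26.1 (SD, n = 6) on BIBB-515, a log2 difference of 0.78 that did not pass (edgeR FDR 0.0854). With all mice kept, the count of 7 was 10 by DESeq2, 11 by limma-voom and by edgeR's likelihood ratio test and 14 with 1 surrogate variable. It was also 14 without control replicate 3, the control with the highest mean of these genes, and 5 without control replicate 6 or BIBB-515 replicates 6, 7, 8 or 11. Of the 17 fatty acid synthesis genes, targets of SREBP-1, 0 rose and 3 fell, Elovl5 at -0.65, Fads2 at -0.47 and Pnpla5 at -1.37, with a median of -0.54. The 3 were 17.6% of the list, where 13.7% of all tested genes were called in either direction and 6.48% as lower. The count of 3 became 5 by DESeq2 and 7 with 1 surrogate variable. Insig2 and Tmem97 thus rose alongside 7 of the 20 sterol synthesis genes. The other 6 of the 8 genes, Insig1, Srebf2 and Stard4 among them, did not pass the test. Neither did 13 of the 20 sterol synthesis genes, Lss among them.

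The machinery that moves, cuts and turns over SREBP held no gene called by edgeR's quasi-likelihood test. Of 16 tested genes, 0 passed its FDR of 0.05, where 13.7% of all tested genes did. An unadjusted edgeR p under 0.05 was reached by 5 of the 16 and by 3713 of all 12481 tested genes. These are like shares, so that count is no result about the list. DESeq2 called 2 of the list as higher and 1 as lower, among 2244 genes called in all. With limma-voom 0 of the list were called, among 1668 in all. Other edgeR fits did call genes of the list. The likelihood ratio test called 1 as lower, and the fit with 1 surrogate variable 2 as higher and 1 as lower. Upper-quartile normalization and counts of primary alignments each gave 1 as higher. Nearest in the main edgeR fit were Rnf145, a ubiquitin ligase for Scap, at -0.31 (edgeR FDR 0.0535), Erlin1 at 0.22 (edgeR FDR 0.0569) and the vesicle coat gene Sec24d at 0.25 (edgeR FDR 0.0593). Of 14 genes of lipoprotein uptake and endosomal sterol export, 2 rose, among them Npc2, which hands cholesterol to NPC1, at 0.22 (edgeR FDR 0.0367). This is 14.3% of the list, where 13.7% of all tested genes were called in either direction and 7.18% as higher. With 2 genes it is taken as no result about the list. The count of 2 became 1 without control replicate 1 or 4 or without BIBB-515 replicate 6, 8, 9, 10 or 11.

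Of 13 sterol transfer genes, the class to which Stard4 belongs, 1 rose and 2 fell. Osbp, an oxysterol-binding exchanger, rose by 0.36 (edgeR FDR 0.0318), a call lost without any 1 of 9 of the 12 mice. Osbpl8 fell by 0.62 (edgeR FDR 0.00519) and Gramd1c, which carries cholesterol from the plasma membrane, fell by 0.58 (edgeR FDR 0.00112), both below every control in 6 of 6 mice. Diets that did not overlap, in either direction, were seen for 7.07% of all tested genes. Of 12 genes of LXR and its targets, the class to which Mylip belongs, 2 rose, the sterol exporter subunits Abcg5 at 0.88 (edgeR FDR 0.000102) and Abcg8 at 0.86 (edgeR FDR 0.000235). Called genes were 23.1% of the transfer list and 16.7% of the LXR list, beside 13.7% of all tested genes, 7.18% as higher and 6.48% as lower. In the LXR list all genes called by edgeR's quasi-likelihood test were higher, while DESeq2 called 3 as higher and 1 as lower. Its median log2 change was 0.05, with 7 of the 12 genes above 0.

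**Figure D5:**
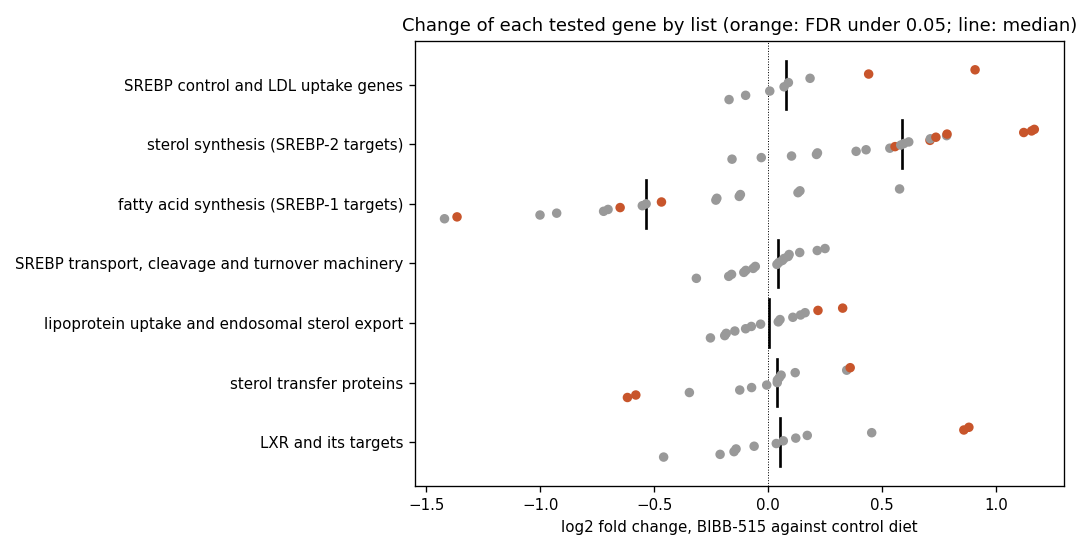
Log2 fold change of BIBB-515 against control diet (horizontal axis) for each tested gene of 7 lists, with a line at each median and orange points past the FDR of 0.05. The sterol synthesis list lies furthest right with a median of 0.59, the fatty acid list furthest left at -0.54, and the other lists have medians between 0.01 and 0.08.

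The libraries held 22764819 to 31058370 counted reads, with overlapping ranges on both diets, and the labels name no sequencing batch. The summed level of 7 hepatocyte markers was 143000 to 161000 CPM in the control livers and 108000 to 122000 on BIBB-515 (exact permutation p = 0.00216). Most of that sum was Alb, at a mean of 120000 CPM in the control livers and 90900 on BIBB-515. Alb, Ttr and Fgb passed as lower, and the other 4 of the 7 did not pass. The summed level of 5 bile duct markers was 62.6 to 116 CPM and 91.9 to 154 (exact permutation p = 0.0325), with 0 of 5 called. Most of that sum was Spp1, at a mean of 82.6 CPM in the control livers and 112 on BIBB-515. Of the 5, 3 had a fitted log2 change above 0, while Krt19 was at -0.50 and Krt7 at -0.15. Sums for Kupffer and leukocyte, endothelial, and stellate and fibroblast markers overlapped between diets, at 323 to 500 and 326 to 537, at 184 to 247 and 170 to 235, and at 319 to 439 and 315 to 405 CPM, although the stellate markers Dcn and Lrat passed as lower. Fat cell markers summed to at most 11.6 CPM in any liver, and Lep was at 0 in all 12. The part of these markers in the Insig2 and Tmem97 results was not tested. In whole liver, fewer cells of a type, less RNA per cell and a lower level of the marker genes themselves cannot be told apart.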

How the data were processed

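Liver RNA of 12 mice, 6 on each diet, was sequenced, and GEO's labels gave the diet and number of each mouse. The authors aligned reads with STAR 2.5.3a to mm10 and deposited whole-number counts made, per the file headers, with featureCounts of Subread 1.6.3 and a UCSC annotation. Gene counts were summed over exons with strand ignored and with multimapping reads and reads shared between genes left out. The deposited transcript tables hold counts of reads unique to 1 transcript, the exon tables count a read on every exon it overlaps, and the primary tables count primary alignments on every overlapping gene. The library preparation is not given in the sources used here.

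Genes reaching 1 CPM in 2 or more of the 12 libraries were kept. After TMM normalization, diet was tested by edgeR's quasi-likelihood method (edgeR 4.0.16, R 4.3.3) with no covariate, the filter and normalization being those the study states for its human tissues. Adjustment by the Benjamini-Hochberg method was over 12481 genes, and the common biological coefficient of variation was 0.143. CPM is a count scaled to the library's TMM-adjusted total, and RPKM divides CPM by the annotated exon length in kilobases. Exon values are log2 values of counts with 0.5 added, scaled to the TMM library size. Within-mouse ratios are differences of edgeR's log2 CPM values, made with a prior count of 2. Both were compared with two-sided exact permutation tests. Replicate libraries differed by far more than sampling noise, with chi-square per degree of freedom of 12.07 to 139.63. Nothing in the labels says more of how the mice of a diet differ than their numbers, so p-values measure the spread between these mice.

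Tested on simulated data for this comparison, over 12370 genes, the fit recovered 94% of genes lowered to 0.5-fold and 82%, 96% and 98% of genes raised 1.5-fold, 2-fold and 3-fold, with 3.14% false among those called. Alternatives were DESeq2 1.42.0, limma-voom of limma 3.58.1, edgeR's likelihood ratio test, upper-quartile normalization, no filter, a filter of 6 samples, the primary tables, 1 surrogate variable of sva 3.50.0 and each mouse left out. Single exons of Insig2 and Srebf1, and the fit without the mouse of each diet with the lowest coverage ratio, were added after seeing the data.

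The 8 genes and the pathway and marker lists were chosen with earlier results of these data known. Named are the 8 genes, Lss, at most 4 genes of each list with the lowest p, and the 3 named genes most alike to each of the 8 in level across mice; some genes under these rules are not reported here.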

Additional observations from a re-analysis of the deposited data

Results flagged for a closer look

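Of 18 sets of 6 mice examined, 2 had a mouse that stood apart by Dixon's test, where chance gives about 1 in 20, or 0.9 of 18. For Tmem97, BIBB-515 replicate 11 was the highest of its diet at 127.0 CPM, and its gap to the next mouse was 0.719 of the whole range. The other 5 BIBB-515 mice lay between 109.2 and 114.2 CPM, so the range itself was narrow. For the upstream first exon of Insig2, BIBB-515 replicate 6 was the highest of its diet with 468 reads, and on the CPM scale its gap was 0.675 of the range. The same mouse had the highest Insig2 gene level, at 716.2 CPM. Without BIBB-515 replicate 11 the call of Tmem97 held. The level of the upstream exon was not tested again without BIBB-515 replicate 6. The exon's share of first-exon reads, a different measure, still passed without that mouse (exact permutation p = 0.00866).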

How the results depend on the processing

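Insig2 and Tmem97 passed the FDR of 0.05, and the other 6 genes did not, under all 8 alternatives that kept every mouse, under all 12 that left out 1 mouse and without the 2 mice of lowest coverage ratio. Over alternatives other than leaving out 1 mouse, the log2 change lay between 0.80 and 1.04 for Insig2 and between 0.43 and 0.46 for Tmem97. The number of genes called lay between 1199 and 1865 without 1 mouse and between 1177 and 2407 otherwise, the highest with 1 surrogate variable. The sterol synthesis genes called as higher, 7 in the report, numbered 10 by DESeq2, 11 by limma-voom and the likelihood ratio test and 14 with 1 surrogate variable, and the fatty acid genes called as lower, 3 in the report, numbered 5 by DESeq2 and 7 with 1 surrogate variable. Without 1 mouse the log2 changes of the uncalled genes ran from -0.06 to 0.24 for Insig1, from -0.07 to 0.14 for Scap, from -0.19 to 0.06 for Stard4, from -0.25 to -0.08 for Srebf1, from 0.13 to 0.26 for Srebf2 and from 0.02 to 0.16 for Mylip. Scap was -0.02 without control replicate 4 and BIBB-515 replicate 11. The sign changes of Insig1, Scap and Stard4 fell on values far inside their intervals. Without 1 mouse, the log2 ratio of Insig1 to Insig2 differed by -1.03 to -0.54, that of Srebf2 to Srebf1 by 0.25 to 0.42, and the Srebf1 first exon share by 0.0514 to 0.076 percentage points. From transcript tables the Insig2 first exon share differed by -4.11 points, where 1 transcript had at most 25 unique reads in a mouse, and the cause was not tested. Srebf1 has 1 listed transcript, so the transcript tables gave no value for it. No paired analysis was possible because replicate numbers run from 1 to 6 on the control diet and from 6 to 11 on BIBB-515, with 1 number in common.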
